A study of Mus musculus with 76 samples.

Results

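The step from thymic induced early T progenitors to induced DN3 thymocytes was described from 6 of the 76 RNA libraries of the series: the 3 replicates labelled Thy_iETPs and the 3 labelled iDN3, compared over all genes. The study asked whether Hoxb5, a homeobox transcription factor, can turn B cell precursors into T cells. Pro- and pre-B cells from the bone marrow of mice on a C57BL/6 background were transduced with a Hoxb5 virus in culture, sorted and transferred into recipients that had received a sublethal dose of irradiation. Both groups were then sorted from recipient thymus, so they share the Hoxb5 transduction and the irradiated host. The labels give no age and do not say how many recipients were used. Each library held RNA of 1000 cells, amplified as cDNA and tagmented. Beside these, the 2 iDN2 libraries (induced DN2 thymocytes, between both stages) and, as natural cells of the same strain and tissue with no virus named for them, the 2 Thy_ETPs and 2 DN3 libraries were used. The sublethal dose leaves the host cells of its own, and no label says how donor cells were told from them.

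Early T progenitors (ETP) are the most immature T lineage cells of the thymus and still hold receptors and transcription factors of multipotent progenitors, such as Kit, Lyl1, Hhex, Lmo2 and Spi1. Notch signals from the thymic stroma, together with Tcf7, Gata3 and Bcl11b, move them through the DN2 stage, at which T lineage commitment occurs and progenitor genes are silenced. DN3 cells, named double negative because they lack Cd4 and Cd8, rearrange the T cell receptor beta locus with Rag1 and Rag2. They pair the product with pre-T alpha (Ptcra) and the CD3 chains in the pre-T cell receptor.

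Values are FPKM, that is fragments per kilobase of transcript relative to the depth of the library, as deposited. A gene of 1 kilobase at 1 FPKM rested on about 4.34 to 6.20 fragments in Thy_iETPs and 4.80 to 5.78 in iDN3, as estimated from steps between low values. Between 10670 and 10988 genes reached 1 FPKM in a Thy_iETPs library and between 10742 and 10800 in an iDN3 library. Mitochondrially encoded genes took 6.5% to 8.2% of the summed FPKM in Thy_iETPs and 18.7% to 22.9% in iDN3, and the totals without them overlapped. Fold changes are differences of log2(FPKM + 1), which understate the change of low genes, and a gene was called at a Benjamini-Hochberg adjusted p below 0.05 in limma. Each test was repeated with a pseudocount of 0.1, without the filter on low values, with other scalings, with library weights, with only the compared groups in the fit and without each library, and the main cases in which a call ended are given beside the gene or its list. The p-values rest on a spread between libraries of the same group, estimated over all groups of the series and not from these libraries alone. The labels do not say whether libraries came from different animals, so this spread may be technical. In bulk samples, fewer cells of a type and less RNA per cell cannot be told apart.

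Sex-linked genes separated both groups. Eif2s3y, a translation factor gene on the Y chromosome, stood at 24.4, 38.8 and 33.2 FPKM in the Thy_iETPs libraries and at 0 in the iDN3 libraries. Xist, the RNA of the inactive X chromosome, stood at 5.28, 5.11 and 2.44 FPKM in Thy_iETPs and at 14.4, 12 and 16.3 in iDN3. The Thy_iETPs libraries thus held both signals, and the iDN3 libraries Xist alone. Xist passed the test (adjusted p = 0.00646), but not with a pseudocount of 0.1 or without Thy_iETPs replicate 3. Ddx3y, an RNA helicase gene of the Y chromosome, stood at 2.65, 2.85 and 4.38 in Thy_iETPs and was listed at 0 in iDN3. Natural cells had the opposite order, with Eif2s3y at 0 in both Thy_ETPs libraries and at 57.8 and 86.1 in DN3. Stage and the source of these signals cannot be told apart in either step. On the X chromosome, 122 of 630 genes tested were called between Thy_iETPs and iDN3, a share near the 19.8% of all genes tested. On the Y chromosome 3 of 4 were called.

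Markers matched the labels in part. In Thy_iETPs, Kit (36.4, 35.0 and 33.3 FPKM), Cd34, Cd44, Lyl1, Hhex and Lmo2 were all present. Flt3, a receptor of multipotent progenitors, stood at only 0.532, 0.0622 and 1.27, and Mef2c at 0, 0.515 and 0. Il2ra, the CD25 chain that defines DN2 and DN3 sorts, was already at 142, 143 and 164, and Bcl11b, the commitment factor, at 118, 129 and 119. In Thy_ETPs both genes were at similar levels, with Il2ra at 157 and 134 and Bcl11b at 149.7 and 164. The iDN3 libraries held Ptcra, Rag1, Cd3e, Cd3g, Notch3 and Dtx1 with Kit and Cd44 low. Il2ra and Bcl11b therefore did not set the groups apart: neither was called, with adjusted p = 0.301 and 0.28. Bcl11b was called lower in iDN3 with libraries scaled to the same total (adjusted p = 0.0346), and Il2ra was called higher with only these groups in the fit (adjusted p = 0.0461).

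The start regions of 4 genes on which the results turn are shown here as the 250 bases before the RefSeq start in GRCm38.p6, a later build than the one of the submitters' processing notes. Cd3d, Cd3g and Ptcra had some of the largest increases, and Lyl1, a progenitor factor, some of the largest decreases. Capitals mark matches, on either strand, to 3 short core motifs of factors that act in this step: the E box CAGGTG of E proteins, the core CTTTGA of the TCF/LEF family, and the core TGGGAA of RBPJ, the DNA-binding partner of Notch.
Cd3d, chr9:44981536-44981785, plus strand: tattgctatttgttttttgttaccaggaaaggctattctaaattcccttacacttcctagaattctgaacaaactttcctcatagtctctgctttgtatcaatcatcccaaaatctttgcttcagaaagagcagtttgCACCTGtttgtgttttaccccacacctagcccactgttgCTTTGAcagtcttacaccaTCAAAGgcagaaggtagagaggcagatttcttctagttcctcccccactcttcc
Cd3g, chr9:44980432-44980681, minus strand: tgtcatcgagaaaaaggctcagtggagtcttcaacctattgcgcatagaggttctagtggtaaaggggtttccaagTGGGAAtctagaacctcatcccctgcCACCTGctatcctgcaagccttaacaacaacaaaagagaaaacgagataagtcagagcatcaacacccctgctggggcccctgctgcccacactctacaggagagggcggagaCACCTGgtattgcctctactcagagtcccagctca
Ptcra, chr17:46763713-46763962, minus strand: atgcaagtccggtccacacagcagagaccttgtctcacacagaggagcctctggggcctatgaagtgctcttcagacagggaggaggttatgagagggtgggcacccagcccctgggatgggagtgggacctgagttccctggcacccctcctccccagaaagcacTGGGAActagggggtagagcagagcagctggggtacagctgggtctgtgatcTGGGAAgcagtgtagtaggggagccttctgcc
Lyl1, chr8:84701207-84701456, plus strand: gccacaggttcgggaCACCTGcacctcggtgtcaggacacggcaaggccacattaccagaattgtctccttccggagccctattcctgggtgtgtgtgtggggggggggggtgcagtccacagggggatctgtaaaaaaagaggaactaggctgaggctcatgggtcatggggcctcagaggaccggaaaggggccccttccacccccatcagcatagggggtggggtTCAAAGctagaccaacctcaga
Cd3d and Cd3g lie beside each other on opposite strands. The Cd3d window held 1 E box, 112 to 107 bases before the start, and a TCF/LEF core on each strand, the nearer one 54 to 49 bases before it. The Cd3g window held an E box 148 to 143 and another 35 to 30 bases before the start, and an RBPJ core 174 to 169 bases before it. The Ptcra window held an RBPJ core 84 to 79 and another 32 to 27 bases before the start. The Lyl1 window held an E box 235 to 230 bases and a TCF/LEF core 22 to 17 bases before it. Such short words are common: of the windows of 27025 gene symbols, 17.1% held the E box, 14.0% the TCF/LEF core and 21.5% the RBPJ core. The RUNX core TGTGGT, in 14.2% of all windows, and the PU.1 core GAGGAAGT, in 2.40%, were searched too and matched none of the 4. A match describes letters and not a bound site.

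Between Thy_iETPs and iDN3, 3446 of 17416 genes tested were called, which is 19.8%. Of these, 1525 were higher in iDN3 (8.76% of genes tested) and 1921 lower (11.0%). A change of at least 2-fold was found for 973 of the genes called higher and 1425 of those called lower, and of at least 16-fold for 55 and 60. The 3 libraries of one group did not overlap with the 3 of the other in 3192 called genes and overlapped in 254. A call favours groups that do not overlap, so this count is no separate support. The share over all genes tested is not given. With each library scaled to the same total, 1102 genes were called higher and 2519 lower, so that genes called higher made up 30.4% of calls instead of 44.3%. That scaling moved the median over genes of at least 1 FPKM from -0.04 to -0.22 on the log2 scale, and scaling to the total of nuclear genes alone moved it to -0.02, with 1521 called higher and 1849 lower.

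**Figure D1:**
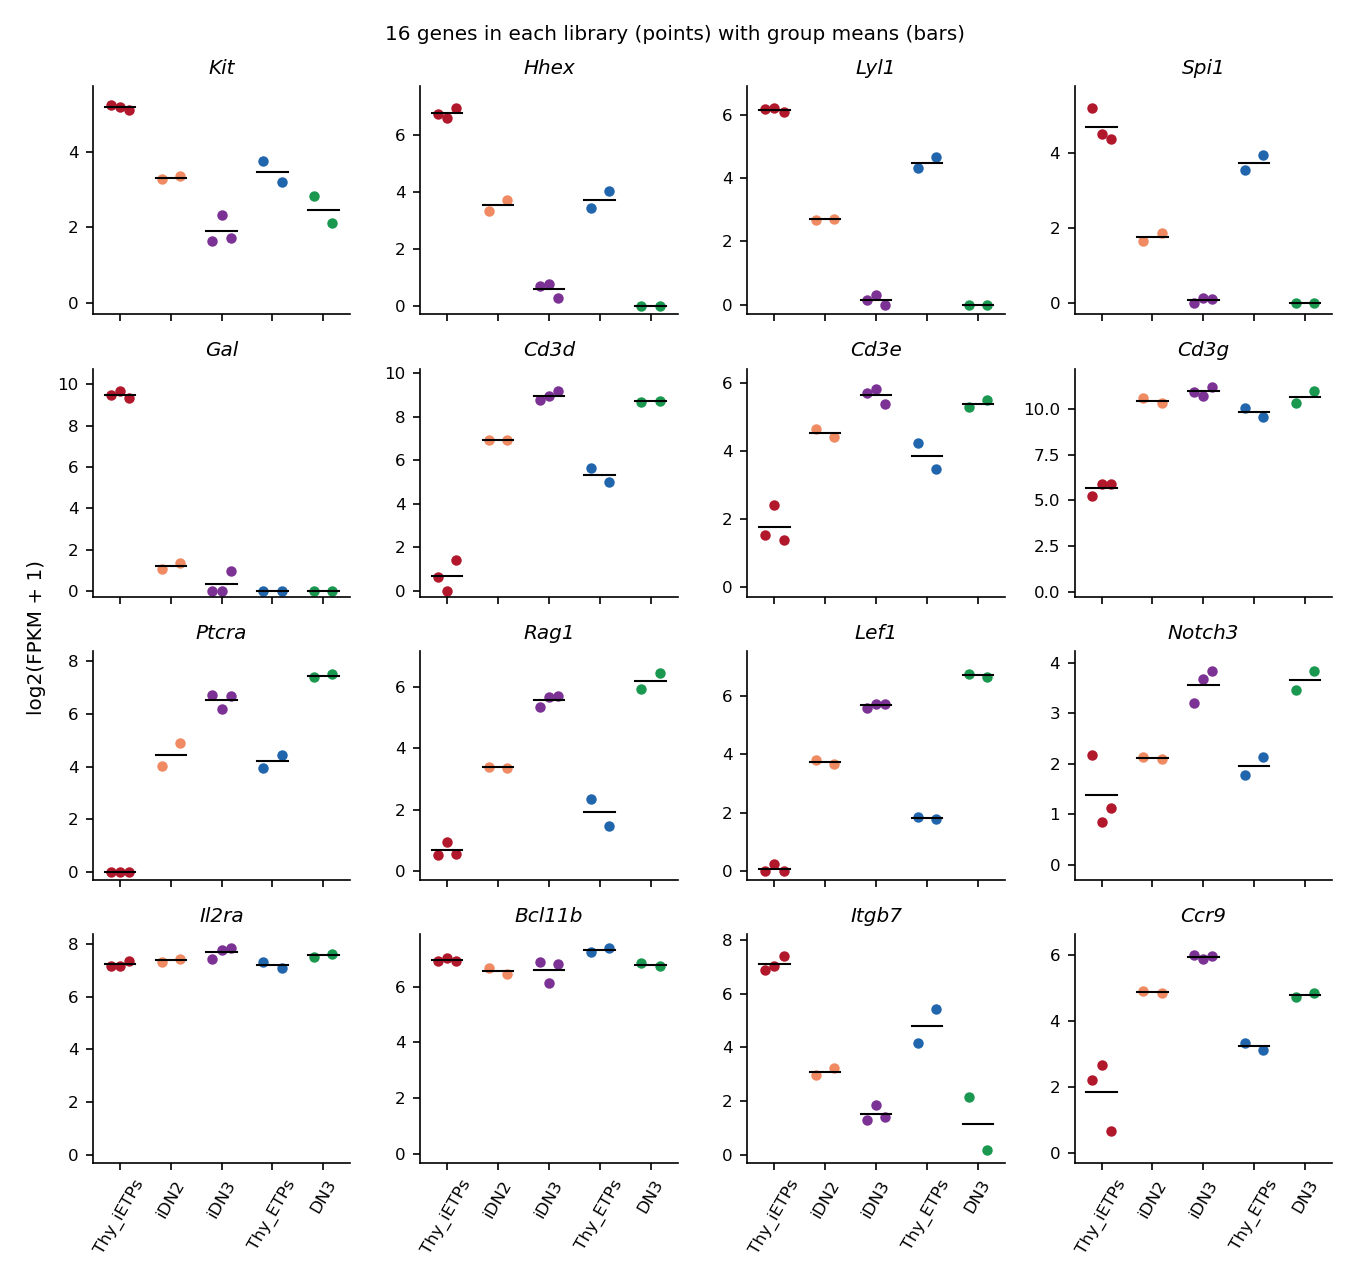
Levels of 16 genes as log2(FPKM + 1) (vertical axes, each panel on its own scale) in each library (points) of the 5 groups on the horizontal axis, with a bar at each group mean. Cd3d, Cd3e, Cd3g, Ptcra, Rag1 and Lef1 stand higher in every iDN3 library than in every Thy_iETPs library, Kit, Hhex, Lyl1, Spi1, Gal and Itgb7 lower, and Il2ra and Bcl11b stand near one level in all 5 groups.

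Hoxb5, the gene delivered by the virus, was measured at low levels at both stages. It stood at 3.10, 3.47 and 1.63 FPKM in Thy_iETPs and at 0.253, 0.349 and 0.418 in iDN3, with no overlap. Its log2 fold change was -1.44 (SE 0.18, adjusted p = 4.52e-09). In Thy_ETPs and DN3 it was listed at 0 in all 4 libraries. The values do not tell viral from endogenous transcript. Of the 12 HoxA and HoxB genes tested, Hoxb5 was the only 1 that averaged 1 FPKM or more at either stage. The 11 others were not called, but at such low levels a fall could not be measured for them.

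Of 20 progenitor transcription factors tested, 9 were called lower and 1 higher, with a median log2 fold change of -0.34 against 0.00 over all genes tested. Hhex, a homeobox repressor of early progenitors, stood at 107, 95.2 and 122 FPKM in Thy_iETPs and at 0.608, 0.721 and 0.221 in iDN3. Lyl1, a basic helix-loop-helix factor of stem and early T progenitors, stood at 71.8, 72.6 and 66.3 and then at 0.104, 0.230 and 0. Both were high in every Thy_iETPs library and near 0 in every iDN3 library, with log2 fold changes of -6.17 (SE 0.36, adjusted p = 9.69e-21) and -6.01 (SE 0.33, adjusted p = 6.90e-22). Spi1, which encodes PU.1 and keeps myeloid potential open, stood at 35.9, 21.9 and 19.9 FPKM in Thy_iETPs and at 0, 0.10 and 0.0854 in iDN3, a log2 fold change of -4.62 (adjusted p = 8.63e-15). Nfe2, a bZIP factor known from platelet and red cell formation, went from 302 ± 65.8 to 11.3 ± 2.23 (SD, n = 3), and was the most abundant of these factors in Thy_iETPs.

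Lmo2, the LIM adaptor that joins such factors into complexes, ranged more widely in Thy_iETPs, at 21.0, 52.8 and 22.4 FPKM, and stood at 2.32, 1.65 and 0.639 in iDN3 (log2 fold change -3.64, adjusted p = 8.56e-12). Cebpa and Gata2, factors of myeloid and mast cell programs, were low in Thy_iETPs at 7.68, 4.39 and 1.93 and 4.88, 3.85 and 3.15, and Gata2 was listed at 0 in iDN3. Erg and Gfi1b were the remaining factors that fell. Id2, an inhibitor of E proteins, rose from 13.2 ± 3.77 to 40.2 ± 13.7 FPKM (log2 fold change 1.52, adjusted p = 0.0027). Bcl11a, Meis1, Mycn, Hoxa9 and Zbtb16 were not called. For Meis1 and Hoxa9 the log2 fold change was 0 under every alternative that tested them, so the missing call does not show a stable level. Of the 20 factors, 11 averaged 1 FPKM or more at either stage.

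Of 20 receptors of progenitors tested, 11 were called lower and 0 higher (median -1.19). Kit, the stem cell factor receptor, stood at 36.4, 35.0 and 33.3 FPKM in Thy_iETPs and at 2.13, 4.01 and 2.29 in iDN3, without overlap and with a log2 fold change of -3.27 (SE 0.44, adjusted p = 2.83e-08). Cd34 stood at 18.7, 22.4 and 21.0 and was listed at 0 in all 3 iDN3 libraries (adjusted p = 7.71e-19). Cd44, the adhesion receptor whose loss is used to sort DN3 cells, stood at 14.7, 28.5 and 22.7 and then at 0, 1.17 and 0.176 (log2 fold change -4.02, adjusted p = 1.92e-13). The abundant receptors moved less: Ly6a, also known as Sca-1, had a log2 fold change of -1.91 (adjusted p = 0.00385), and Cd48 and Cd27 had -1.27 (adjusted p = 3.40e-04) and -1.11 (adjusted p = 0.015). Cd9, Cd33, Cd93, Csf2rb and Procr made up the rest of those that fell, with Csf2rb and Procr listed at 0 in iDN3. Ly6a and Cd27 were not called with a pseudocount of 0.1, Cd27 not without iDN3 replicate 2, and Procr not with only these groups in the fit.

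Some genes of myeloid and mast cells fell as well. Of 20 myeloid genes tested, 5 were called lower (median -0.41), and the summed level of the list was 108.6 to 161.0 FPKM in Thy_iETPs and 17.5 to 32.5 in iDN3. Ctsg, a granule protease, stood at 42.1, 53.5 and 61.6 FPKM in Thy_iETPs and was listed at 0 in iDN3 (adjusted p = 1.74e-27), and Mpo, the granule peroxidase, stood at 0.0941, 13.6 and 28.0 and was listed at 0. Only 7 of the 20 averaged 1 FPKM or more at either stage. Cd14, Csf1r, S100a8 and S100a9, which mark monocytes and neutrophils, were not called. For Cd14 and S100a9 the log2 fold change was 0 under every alternative that tested them, so the missing call does not show a stable level. Without Thy_iETPs replicate 3 the myeloid count was 3, and with only these groups in the fit it was 2, where Mpo was not called. Of 9 mast cell and basophil genes tested, 3 were lower. Mcpt8, a basophil protease, stood at 15.1, 30.3 and 38.8 FPKM and was listed at 0 in iDN3 (adjusted p = 4.57e-22). Cpa3, a mast cell protease that T progenitors also make, stood at 529, 626 and 711 in Thy_iETPs, 604 and 526 in iDN2 and 17.3, 37.1 and 40.6 in iDN3. Its levels overlapped between Thy_iETPs and iDN2 and were low in every iDN3 library, with adjusted p = 1.70e-05 for the second interval. The part of other cells in these results was not tested.

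Factors of T identity moved in both directions, and Tcf7 and Gata3 overlapped between the stages. Of 20 tested, 6 were called higher and 3 lower, and the median was 0.02. Lef1, the TCF family partner of Tcf7, stood at 0, 0.193 and 0 FPKM in Thy_iETPs, 12.8 and 11.7 in iDN2 and 46.9, 52.1 and 51.6 in iDN3. It was near 0 at the start and high in every iDN3 library, with a log2 fold change of 5.59 (SE 0.31, adjusted p = 1.42e-21). Spib, an Ets factor, had a log2 fold change of 2.92 (adjusted p = 1.96e-08), Id3 of 2.17 (adjusted p = 6.11e-05), Tcf12, which encodes the E protein HEB, of 1.29 (adjusted p = 8.54e-10), and Satb1, a chromatin organizer, of 0.93 (adjusted p = 7.80e-04). Ikzf3 was listed at 0 in Thy_iETPs and also passed the test. Runx3, Runx1 and Nfatc1 fell, with log2 fold changes of -1.33, -0.83 and -0.97, and Runx1 was not called without Thy_iETPs replicate 1. Tcf7, the first Notch-induced T factor, stood at 655, 697 and 698 in Thy_iETPs and 685, 661 and 625 in iDN3, which overlap. Gata3 also overlapped, at 90.0, 75.2 and 49.2 and 65.3, 50.4 and 78.8.

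The Notch pathway was split as well. Of 24 members tested, 3 were called higher and 3 lower, a share near that of all genes. Notch3, a receptor that is itself a Notch target in DN3 cells, stood at 3.52, 0.791 and 1.18 FPKM in Thy_iETPs and at 8.18, 11.8 and 13.3 in iDN3 (log2 fold change 2.19, adjusted p = 1.35e-10). Hes1, the classical target repressor, stood at 6.30, 7.41 and 6.98 and then at 31.4, 34.0 and 41.3, without overlap (log2 fold change 2.2, adjusted p = 1.16e-04). Hey1 was the third gene that rose (1.73, adjusted p = 0.0219), and its call ended without Thy_iETPs replicate 2 or 3 and without iDN3 replicate 1 or 3. Dtx1, a further target, stood at 16.6, 15.0 and 15.9 in Thy_iETPs, 6.13 and 3.08 in iDN2 and 28.1, 33.7 and 37.5 in iDN3. The fall to iDN2 and the rise after it both passed (adjusted p = 0.00801 and 1.28e-04), while the whole step did not (adjusted p = 0.07). The fall to iDN2 did not pass without iDN2 replicate 2 or at a pseudocount of 0.1, and the whole step was called with library weights, after quantile normalization and with only these groups in the fit. Mfng, a glycosyltransferase that modifies Notch, the coactivator Maml3 and the feedback inhibitor Nrarp fell, with log2 fold changes of -1.50, -1.07 and -1.10. The calls of Maml3 and Nrarp ended with a pseudocount of 0.1, after quantile normalization, with only these groups in the fit and without Thy_iETPs replicate 1. Nrarp was also not called without the filter on low values, without Thy_iETPs replicate 3 or without iDN3 replicate 3, and Maml3 not without Thy_iETPs replicate 2 or iDN3 replicate 1 or 2. Notch1 stood at 60.7, 54.2 and 44.1 and 68.7, 70.0 and 81.4 and did not pass (adjusted p = 0.155).

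Cd3d, Cd3e, Cd3g and pre-T alpha rose. Of 29 genes of the pre-T receptor, CD3 and proximal signaling tested, 8 were called higher and 8 lower (median -0.19). Cd3d stood at 0.564, 0 and 1.65 FPKM in Thy_iETPs, 122 and 121 in iDN2 and 442, 501 and 578 in iDN3. It had the highest log2 fold change among named genes of the step, 8.30 (SE 0.20, adjusted p = 7.32e-39). Cd3g was already present at 37.3, 58.3 and 58.6 and reached 1973, 1686 and 2362 (log2 fold change 5.28, adjusted p = 1.06e-34), and Cd3e stood at 1.87, 4.30 and 1.62 and then at 51.4, 55.7 and 40.9 (3.87, adjusted p = 1.10e-18). Ptcra was listed at 0 in all 3 Thy_iETPs libraries and stood at 15.1 and 28.6 in iDN2 and 104, 72.0 and 101 in iDN3 (adjusted p = 9.02e-16). In each of these 4 genes every iDN3 library was above every Thy_iETPs library.

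The zeta chain Cd247 did not move with the other chains: it stood at 210.1, 224 and 183 FPKM in Thy_iETPs and at 239, 209 and 218 in iDN3, which overlap. The kinase Lck, at 932, 872 and 901 and 1020.0, 1183 and 1284, did not pass either (adjusted p = 0.249). Cd28, the costimulatory receptor, Themis, a signaling adaptor of thymocytes, Thy1 and Ptprc rose, with log2 fold changes of 2.51, 1.65, 1.10 and 0.69. Thy1 was not called with a pseudocount of 0.1, and Ptprc not with equal totals. Cd5 and Cd6, surface receptors that tune receptor signals, fell from 25 ± 4.97 to 4.43 ± 1.57 and from 31.6 ± 6.20 to 9.96 ± 1.39 FPKM (SD, n = 3, adjusted p = 1.98e-07 and 1.98e-06). Syk, Vav1 and Plcg1 fell as well, with log2 fold changes from -1.20 to -0.61, and Vav1 was not called without Thy_iETPs replicate 1 or 3 or iDN3 replicate 3. Of the constant segments, Trbc1 fell by 1.42 (adjusted p = 3.06e-06), and Trbc2 did not pass (adjusted p = 0.109). Trbc1 and Trbc2 are near-identical copies, so the split of reads between them is uncertain.

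Of 15 genes of V(D)J recombination and end joining, 6 were called higher and 1 lower (median 0.64). Rag1 stood at 0.418, 0.906 and 0.466 FPKM in Thy_iETPs, 9.60 and 9.38 in iDN2 and 40.2, 50.4 and 51.3 in iDN3 (log2 fold change 4.92, SE 0.31, adjusted p = 2.19e-19). Rag2, its partner, was present from the start at 9.23, 11.8 and 9.55 and stood at 50.3, 23.6 and 50.2 in iDN3 (1.85, adjusted p = 4.98e-04). Dntt, which adds bases at the joints, was abundant at both stages, at 831, 777 and 935 and 1029, 1153 and 1175. Its libraries did not overlap, but it did not pass (adjusted p = 0.0645). Xrcc5, Lig4, Xrcc6 and Hmgb1 rose, Hmgb1 not with equal totals, and Poll, a repair polymerase, fell from 18.9 ± 1.39 to 1.26 ± 0.803 FPKM (log2 fold change -3.20, adjusted p = 1.94e-07). Of 20 T cell receptor beta variable segments tested, 17 were called higher and 0 lower, with a median of 5.32. Trbv1 stood at 0, 1.56 and 0.953 FPKM in Thy_iETPs and at 70.7, 196 and 20.2 in iDN3. Trbv31 stood at 1.80, 0 and 0 and then at 53.6, 75.2 and 41.1. Their iDN3 levels varied widely between libraries but were above each Thy_iETPs library, and related segments can share reads.

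Among 20 thymocyte surface markers, 4 were called higher and 8 lower. Il7r, the interleukin 7 receptor chain, rose from 24.6 ± 8.83 to 72.7 ± 8.09 FPKM (SD, n = 3, log2 fold change 1.59, adjusted p = 2.57e-06). Cd24a, a sialoglycoprotein of immature thymocytes, and Cd69 rose by 1.46 and 1.76. Cd53, a tetraspanin, stood at 232, 221 and 202 in Thy_iETPs and at 29.2, 28.5 and 36.6 in iDN3 (log2 fold change -2.76, adjusted p = 9.13e-11), and Il4ra stood at 17.4, 26.8 and 39.3 and then at 1.10, 0.905 and 1.20 (-3.73, adjusted p = 1.01e-13). Both fell without overlap, as did Cd52, Cd81, Cd82 and Ly6c2. Cd4 was listed at 0 in all 6 libraries and Cd8a reached at most 0.249 FPKM in any of them. Of 20 genes of the later double positive stage, 9 were called higher and 2 lower (median 0.85), among them Ets2 (3.22), Arpp21 (1.60) and, shared with the lists above, Rag1, Rag2 and Themis. Arpp21 was not called with a pseudocount of 0.1. Tdrd5, listed at 0 in Thy_iETPs, reached 12.1, 6.95 and 9.86 in iDN3.

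Of 24 genes of homing and egress, 12 were called lower and 2 higher, with a median of -0.88. Itgb7, the beta 7 integrin chain, stood at 118, 131 and 167 FPKM in Thy_iETPs, 6.78 and 8.37 in iDN2 and 1.47, 2.58 and 1.64 in iDN3 (log2 fold change -5.60, SE 0.44, adjusted p = 1.37e-15). S1pr1, the receptor that guides exit from tissue, stood at 22.7, 22.1 and 32.3 and then at 0.0889, 0.587 and 0.585 (-4.23, adjusted p = 9.43e-12), and Klf2, the factor that drives its expression, stood at 98.0, 78.5 and 104 and then at 2.94, 5.80 and 7.14 (-3.96, adjusted p = 3.56e-10). In all 3 genes the stages did not overlap. Selplg, an abundant adhesion ligand, fell by 1.31, and Ccr7, S1pr4, Itga4, Itgal, Itgb2, Itga6 and Klf13 also fell. Itga6 was not called without Thy_iETPs replicate 1 or iDN3 replicate 1. Klf13 kept its call only without iDN3 replicate 3 among the alternatives that leave out a library, and lost it after quantile normalization and with only these groups in the fit. Ccr9, the receptor for the thymic chemokine CCL25, rose from 3.21 ± 2.43 to 60.4 ± 2.74 FPKM (SD, n = 3, log2 fold change 4.08, adjusted p = 2.48e-15). Itgae, the CD103 chain that pairs with beta 7, was listed at 0 in Thy_iETPs and stood at 6.83, 6.23 and 6.99 in iDN3. Of 23 genes of mature T cells, 7 were lower and 1 higher: Ctla4, an inhibitory receptor, stood at 6.39, 2.46 and 1.31 in Thy_iETPs and 96.7, 106 and 122 in iDN3 (log2 fold change 4.80, adjusted p = 3.90e-16).

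**Figure D2:**
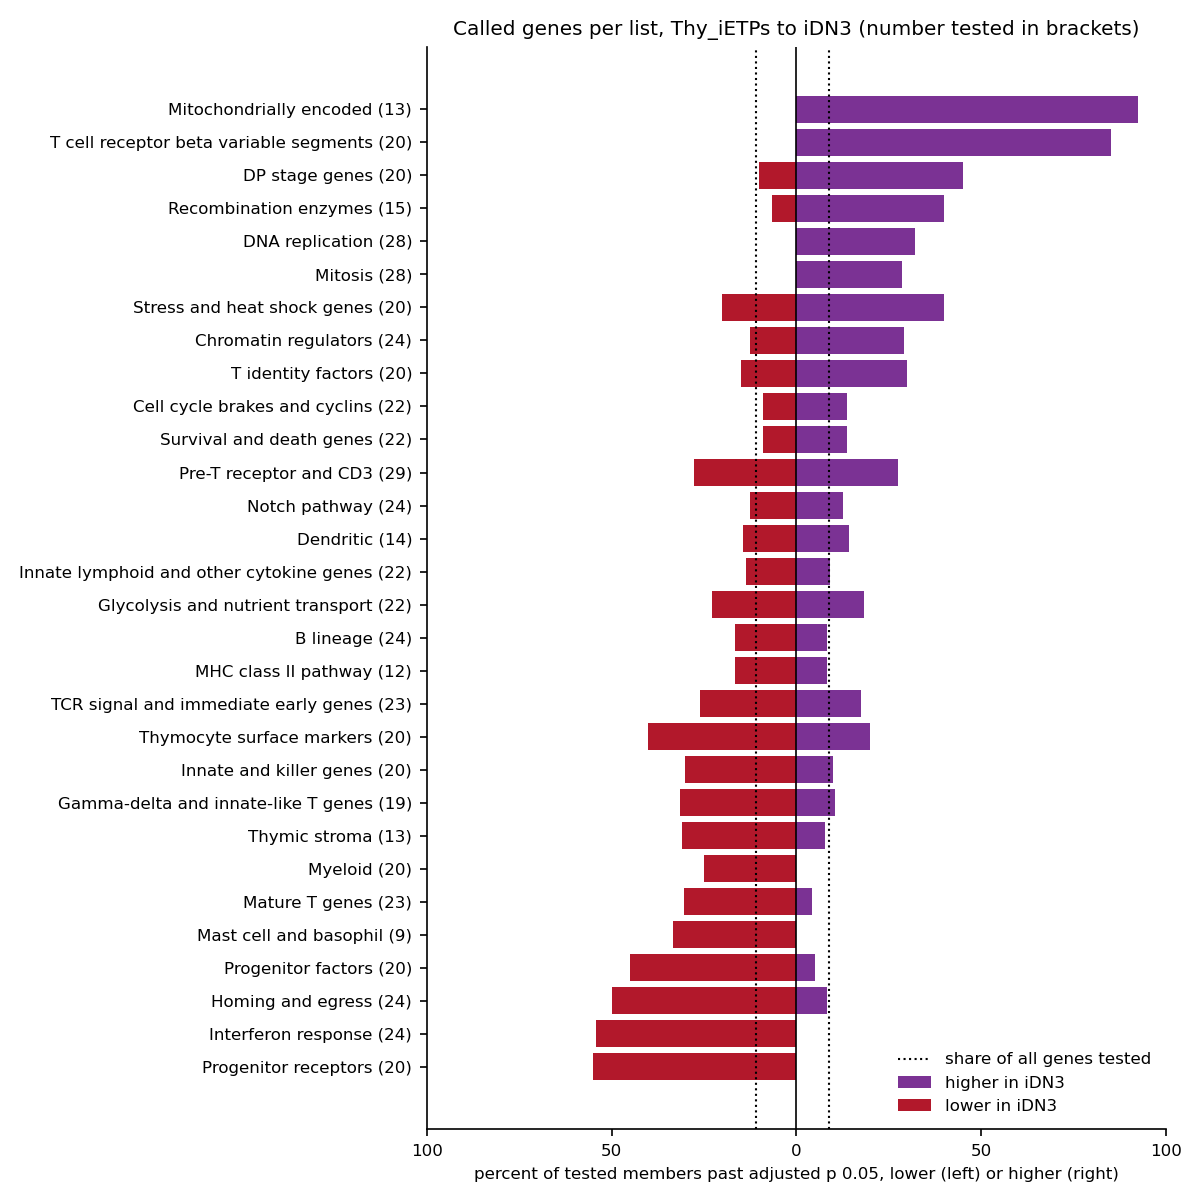
Percent of tested members of 30 gene lists called lower (left, red) or higher (right, purple) in iDN3 than in Thy_iETPs, with the number tested in brackets and dotted lines at the share of all genes tested, 11.0% lower and 8.76% higher. Mitochondrially encoded genes and beta variable segments have the largest share called higher, 92.3% and 85.0%, and progenitor receptors and interferon response genes the largest share called lower, 55.0% and 54.2%.

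Outside these groups, several of the largest decreases belonged to genes with other known roles. Gal, which encodes the neuropeptide galanin, stood at 719, 809 and 652 FPKM in Thy_iETPs, 1.08 and 1.53 in iDN2 and 0, 0 and 0.958 in iDN3 (log2 fold change -9.18, SE 0.54, adjusted p = 9.05e-21). S100a4, a calcium-binding protein, stood at 518, 443 and 514 and then at 0, 0 and 1.72 (-8.46, adjusted p = 3.97e-11). Ifitm1, an interferon-induced membrane protein, stood at 441, 365 and 394 in Thy_iETPs and was listed at 0 in iDN3 (adjusted p = 2.38e-16). All 3 were among the most abundant of the falling genes and nearly absent at the end. Igfbp4, which binds insulin-like growth factors, Mdga1, a membrane-anchored adhesion protein, and Tspan32, a tetraspanin of blood cells, had log2 fold changes of -7.08 (adjusted p = 2.22e-19), -6.46 (adjusted p = 8.75e-22) and -6.09 (adjusted p = 2.08e-14). Serpina3g, a protease inhibitor, and Olfm5 stood at 58.4, 67.8 and 58.1 and 35.3, 61.9 and 47.2 and were listed at 0 in iDN3. Gal, Igfbp4, Mdga1, Hhex and Olfm5 had their highest mean among all 24 groups of the series in Thy_iETPs.

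Gzma, the granzyme A gene, came next after Cd3d among the genes ranked by increase. It stood at 0.673, 3.39 and 5.37 FPKM in Thy_iETPs and at 703, 679 and 610.5 in iDN3 (log2 fold change 7.53, SE 0.44, adjusted p = 8.60e-21). Of 20 innate and killer genes tested, 2 were called higher (10.0%) and 6 lower (30.0%), beside 8.76% and 11.0% of all genes tested. Gzmb, Nkg7 and Tyrobp, a granzyme, a granule membrane protein and a signaling adaptor, had log2 fold changes of -4.23, -2.14 and -5.08, while Ifng rose by 3.15. Nkg7 was not called with a pseudocount of 0.1. Slc5a9, a sugar transporter, stood at 0, 2.85 and 0.0544 in Thy_iETPs and 134, 121 and 134 in iDN3 (6.35, adjusted p = 4.98e-17), and H19, an imprinted noncoding RNA, at 0, 0 and 1.63 and 72.2, 83.2 and 54.2 (5.66, adjusted p = 1.21e-13). Pld4, a lysosomal nuclease, had a log2 fold change of 5.51 (adjusted p = 3.13e-11). Fbln2, Chrna9 and Adamtsl2, listed at 0 in Thy_iETPs, stood at 47.5, 61.9 and 68.9, 33.7, 60.2 and 40.2 and 30.8, 38.7 and 48.5 in iDN3. Cd3d, Cd3g, Slc5a9, Fbln2 and Adamtsl2 had their highest group mean of the whole series in iDN3.

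Some cell cycle genes rose, with a wide spread between the iDN3 libraries. Of 28 genes of DNA replication, 9 were called higher and 0 lower (median 0.38). Rrm1, a subunit of ribonucleotide reductase, stood at 36.6, 38.5 and 49.7 FPKM in Thy_iETPs and at 147, 81.6 and 93.2 in iDN3 (log2 fold change 1.31, adjusted p = 5.50e-06). Mcm4, of the replicative helicase, stood at 63.9, 50.4 and 40.1 and then at 112, 99.7 and 73.2 (0.88, adjusted p = 0.00866). Both separated the groups. Pcna, Prim1, Uhrf1, Ccne1, Ccne2 and Dut also rose, while Mcm2, Tyms, Cdc6 and E2f1 were not called. Pcna, Prim1, Ccne1 and Mcm4 lost their calls with equal totals and without iDN3 replicate 1. Prim1 and Ccne1 were also not called without Thy_iETPs replicate 2, Mcm4 not without Thy_iETPs replicate 3 and Ccne1 not without iDN3 replicate 2 or 3. Of 28 mitosis genes, 8 were called higher and 0 lower (median 0.60): Ccnb1, Ccna2, Aurka, Bub1, Birc5, Kif11, Nusap1 and Mad2l1. Of these, Nusap1 and Mad2l1 were called under every alternative run, and the call of each other gene ended under at least 2 of them, Aurka under 6 and Kif11 under 5. Nusap1, a spindle protein, stood at 5.16, 9.91 and 9.78 in Thy_iETPs and at 39.1, 34.3 and 12.7 in iDN3 (1.58, adjusted p = 0.00364). Mki67 overlapped, at 6.72, 12.4 and 9.51 and 22.6, 12 and 10.4, and did not pass (adjusted p = 0.195).

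The summed level of the mitosis list was 705.7, 662.8 and 727.9 FPKM in Thy_iETPs and 1516, 1236 and 739.1 in iDN3, so that iDN3 replicate 3 stood barely above Thy_iETPs. The 2 iDN2 libraries were above all of them, at 1748 and 2285. Without iDN3 replicate 1 the mitosis count was 3 and the replication count 5. The mitosis count was 4 without Thy_iETPs replicate 1 and with a pseudocount of 0.1, 5 without iDN3 replicate 2, and 9 without iDN3 replicate 3. Among 22 cyclins and brakes, 3 were called higher (13.6%) and 2 lower (9.1%), near the shares of all genes tested (8.76% and 11.0%). Ccnd3, a D-type cyclin, fell from 248 ± 38.9 to 75.9 ± 7.41 FPKM (SD, n = 3, log2 fold change -1.69, adjusted p = 1.67e-06). Cdkn1a and Cdkn2c, inhibitors of cyclin-dependent kinases, rose by 1.75 and 1.54, and Btg1, an antiproliferative gene, by 0.48, while Cdkn1a was not called with a pseudocount of 0.1 or without Thy_iETPs replicate 2. Btg1 was called only without iDN3 replicate 1 among the alternatives that leave out a library, and not with equal totals.

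Of 24 interferon response genes tested, 13 were called lower and 0 higher (median -1.26). Oas2, an antiviral nucleotide synthetase, stood at 14.7, 59.3 and 36.1 FPKM in Thy_iETPs and at 0.305, 1.43 and 2.44 in iDN3 (log2 fold change -3.88, adjusted p = 1.00e-09). Irf7, a regulator of the response, stood at 52.6, 51.6 and 37.1 and then at 2.78, 6.74 and 9.91 (-2.80, adjusted p = 6.23e-06). The libraries of each stage stayed apart in both genes. Usp18, Oas1a, Oasl2, Oas3, Mx1, Isg15, Ifit3, Rsad2, Rtp4, Irf9 and Irgm1 also fell, with log2 fold changes from -2.17 to -1.15. Mx1, Isg15, Ifit3 and Rsad2 were not called without Thy_iETPs replicate 2, Mx1, Isg15 and Rsad2 not without Thy_iETPs replicate 1, Mx1 and Isg15 not without iDN3 replicate 1, Mx1 and Rtp4 not without iDN3 replicate 2, and Rsad2 not without iDN3 replicate 3. Isg15 and Rsad2 were not called with a pseudocount of 0.1 either, and Ifit3 and Mx1 not with only these groups in the fit.

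Early response and stress genes divided. Among 23 receptor signal and early response genes, 4 were called higher (17.4%) and 6 lower (26.1%), beside 8.76% and 11.0% of all genes tested. Their median was 0.25, and without Thy_iETPs replicate 3 the count of higher genes was 1. Dusp2, a phosphatase induced by signals and counted among mature T genes, stood at 1145, 1112 and 998 FPKM in Thy_iETPs and at 199, 237 and 216 in iDN3 (log2 fold change -2.32, adjusted p = 2.26e-12). Of the early response list, Cd69 was among the genes that rose, by 1.76. Ier2 and Zfp36 fell by 2.26 and 2.40, and Nr4a1, an early target of receptor signals, by 2.04. Its levels in Thy_iETPs, 93.1, 47.5 and 21.3, spread widely. Of 20 stress and heat shock genes, 8 were called higher and 4 lower (median 0.34), with 1 lower without Thy_iETPs replicate 1 or iDN3 replicate 1. Hspa1a, an inducible chaperone, was listed at 0 in Thy_iETPs and stood at 19.6 and 29.2 in iDN2 and 29.8, 47.5 and 42.3 in iDN3 (adjusted p = 2.93e-17). Its near-identical neighbour Hspa1b showed the same pattern, and reads of the pair can be shared. Hsp90aa1, Hspd1 and Dnajb4 rose by 1.38, 1.15 and 2.80, and Trib3, Bag3, Atf4 and Dnajb1 fell. The calls of Bag3, Atf4 and Dnajb1 ended without Thy_iETPs replicate 1, those of Atf4 and Dnajb1 also without iDN3 replicate 3 and when scaled to nuclear totals, and those of Bag3, Atf4 and Dnajb1 without iDN3 replicate 1. Bag3 was also not called with a pseudocount of 0.1, after quantile normalization, with only these groups in the fit or without iDN3 replicate 2, and Dnajb1 not without Thy_iETPs replicate 2.

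Of the 13 mitochondrially encoded messenger RNAs, 12 were called higher and 0 lower (median 1.85). The complex I subunit gene mt-Nd2 stood at 1161, 1080.0 and 822 FPKM in Thy_iETPs and at 5492, 5470.0 and 7655 in iDN3 (log2 fold change 2.60, adjusted p = 9.56e-14). The cytochrome b gene mt-Cytb had a log2 fold change of 1.64 (adjusted p = 7.86e-15). The count was between 10 and 12 under each alternative, including equal totals. Among 22 genes of glycolysis and nutrient transport, 4 rose (18.2%) and 5 fell (22.7%), beside 8.76% and 11.0% of all genes tested. Slc16a1, a lactate transporter, rose by 2.21 and Gapdh by 0.62, against -1.25 for Aldoa and -1.07 for Hk1. With equal totals 2 of these genes were called higher, and without iDN3 replicate 1 only 2 were called lower. Gapdh was not called with equal totals, and Hk1 not with a pseudocount of 0.1 or without Thy_iETPs replicate 1 or iDN3 replicate 1. Of 24 chromatin regulators, 7 were called higher (29.2%) and 3 lower (12.5%). Ezh2, Suz12 and Bmi1, of the Polycomb complexes, had log2 fold changes of 1.16, 1.05 and 1.24, and Smarca4, a remodeling ATPase, of 1.02. Bmi1 was not called without Thy_iETPs replicate 1. Ezh1, Cbx2 and Cbx7, also Polycomb genes, had -1.27, -1.47 and -1.39. Of 22 survival and death genes, 3 were called higher (13.6%) and 2 lower (9.1%), near the shares of all genes tested (8.76% and 11.0%). Their median was 0.01. The death-promoting Bmf, Bcl2l11 and Fas rose, with log2 fold changes of 1.28 (adjusted p = 0.0155) and 0.78 (adjusted p = 0.0258) for the first and second, while Fas was listed at 0 in Thy_iETPs. Birc3 and Cflar, which restrain death receptor signals, fell by 1.13 and 0.88. The call of Bcl2l11 was lost with equal totals and with only these groups in the fit, that of Bmf with a pseudocount of 0.1, and that of Cflar with that pseudocount, with no filter and after quantile normalization. That of Bmf also ended when any of Thy_iETPs replicates 2 and 3 and iDN3 replicates 2 and 3 was left out, that of Bcl2l11 for Thy_iETPs replicates 1 and 3 and iDN3 replicates 1 and 2, that of Cflar for each library but iDN3 replicate 1, that of Birc3 for Thy_iETPs replicate 3 and iDN3 replicate 3, and that of Fas for iDN3 replicate 3.

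**Figure D3:**
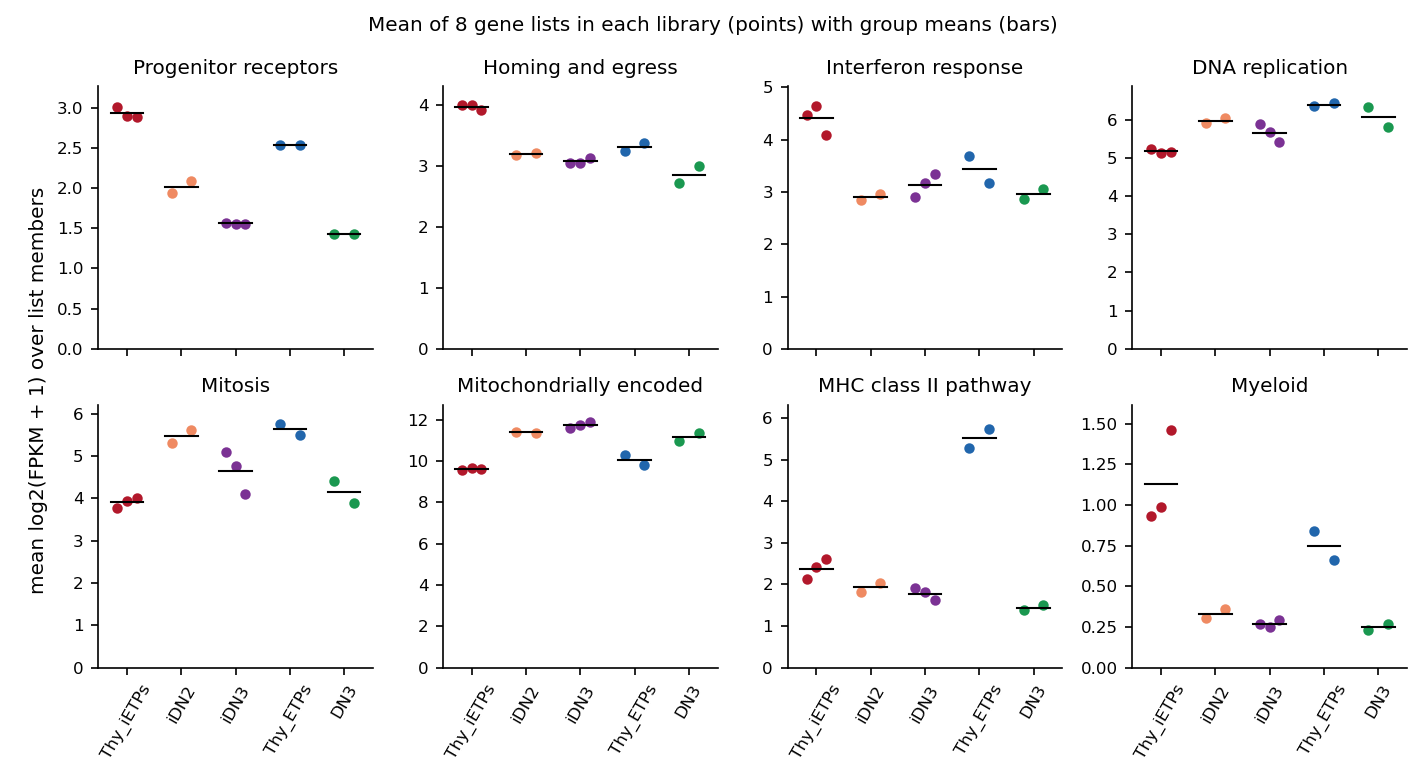
Mean log2(FPKM + 1) over the members of 8 gene lists (vertical axes, each panel on its own scale) in each library (points) of the 5 groups, with a bar at each group mean. Progenitor receptors, homing, interferon and myeloid genes stand higher in all 3 Thy_iETPs libraries than in all 3 iDN3 libraries, mitochondrially encoded genes lower, and MHC class II genes are high in the 2 natural Thy_ETPs libraries alone.

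Markers of other cell types were counted as well, beside 8.76% called higher and 11.0% lower over all genes tested. Of 24 B lineage genes tested, 2 were called higher (8.3%) and 4 lower (16.7%), with 7 lower with equal totals or library weights. Both that rose, Rag1 and Cd24a, are also thymocyte genes. Pax5, the B lineage factor, was listed at 0 in all 6 libraries, and Ebf1 reached at most 1.35 FPKM and Cd79a at most 0.568. Igkc, the kappa constant segment, fell by 4.78 (adjusted p = 0.00377), and Cd72 by 3.02. Of 11 erythroid genes none was called, and only 3 averaged 1 FPKM or more at either stage. Of 13 thymic stroma genes 1 was called higher and 4 lower, with Krt8, which marks thymic epithelium, listed at 0 throughout. The gene that rose was Epcam, an epithelial adhesion molecule, at 2.27, 0.441 and 0.929 FPKM in Thy_iETPs and 30.4, 33.1 and 48.9 in iDN3 (log2 fold change 4.17, adjusted p = 7.19e-10). Prss16, a thymus-specific serine protease, stood at 45.1, 15.5 and 16.6 and then at 0.341, 0.375 and 0 (-4.27, adjusted p = 1.05e-09), and Aire, Pecam1 and Cxcl12 were the others that fell, Cxcl12 not without Thy_iETPs replicate 1. Of 14 dendritic genes Irf8 and Ccr9 were called higher (14.3%) and Itgax and Cst3 lower (14.3%), Cst3 not without Thy_iETPs replicate 3. Of 12 MHC class II pathway genes 1 was higher (8.3%) and 2 lower (16.7%). H2-Ob, of the peptide loading pathway, stood at 67.7, 66.5 and 66.8 FPKM in Thy_iETPs and at 0.804, 1.55 and 3.28 in iDN3 (log2 fold change -4.65, adjusted p = 1.82e-10), whereas Cd74 reached at most 0.416 FPKM in any of the 6 libraries. Of 19 genes of gamma-delta and innate-like T cells, 2 were higher (10.5%) and 6 lower (31.6%), and Cd163l1 fell by 2.32. Of 22 innate lymphoid and cytokine genes, 2 were higher (9.1%) and 3 lower (13.6%), near the shares of all genes tested. Ltb fell by 1.79 and Rora by 1.88, while Ahr rose by 2.42.

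The iDN2 libraries lay nearer to iDN3 than to Thy_iETPs in most genes of large change. From Thy_iETPs to iDN2, 2408 genes were called (13.8%), and from iDN2 to iDN3 157 (0.901%). These comparisons share libraries with the whole step, and iDN2 has only 2 libraries. For genes called at least 2-fold higher over the whole step, the iDN2 mean lay at a median of 82.2% of the way on the log2 scale, past the midpoint for 808 of 973, and between both stages for 722 (74.2%). For genes called at least 2-fold lower the median was 81.1%, with 1234 of 1425 past the midpoint and 1072 between both stages (75.2%). Over genes that averaged 1 FPKM or more in some group of the series, the iDN2 mean lay between the stages for 36.8%. That set holds genes without signal in these groups, which cannot lie between. The genes of large change were chosen from the same libraries, so these shares are not alike. Of the genes called to iDN2, 46.2% were higher, against 35.8% with equal totals. Without iDN2 replicate 1 the count to iDN2 was 1300 and without iDN2 replicate 2 it was 1309.

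Of the 29 pre-T receptor and CD3 genes 2 were called from iDN2 to iDN3, and of the 15 recombination genes 1. Over all genes tested the share was 0.901%. Cd3d, Cd3e, Rag1, Lef1 and Notch3 rose, with log2 fold changes of 2.04 (adjusted p = 7.05e-09), 1.12 (adjusted p = 0.0299), 2.2 (adjusted p = 2.72e-05), 1.95 (adjusted p = 3.15e-04) and 1.45 (adjusted p = 5.92e-04). Slc5a9 and H19 rose by 2.84 and 3.60. Progenitor genes that had fallen by iDN2 fell again: Hhex stood at 9.01 and 12.3 FPKM in iDN2 and Lyl1 at 5.45 and 5.50, and the second interval brought log2 fold changes of -2.94 and -2.55 (adjusted p = 1.75e-06 and 4.09e-06). Spi1, Nfe2, Cd44, Igfbp4 and Mdga1 were called lower there too. With a pseudocount of 0.1, the second interval was not called for Cd3d, Cd3e, Notch3, Slc5a9, H19 and Nfe2. The call of Spi1 ended when any 1 of the 5 libraries was left out, that of Cd3e without either iDN2 library or iDN3 replicate 1 or 2, and those of Nfe2 and Cd44 without iDN2 replicate 2. Kit stood at 8.66 and 9.15 in iDN2 and did not pass in the second interval (adjusted p = 0.264). Ptcra, at 15.1 and 28.6 in iDN2, had adjusted p = 0.058 for that interval, and Cd3g 0.27. Gal, Oas2 and Dusp2 were not called in the second interval (adjusted p = 1, 1 and 1).

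The natural step, from the 2 Thy_ETPs to the 2 DN3 libraries, had 1749 called genes (10.0%), of which 38.1% were higher in DN3, against 22.7% with equal totals. Without Thy_ETPs replicate 2 the count was 1036, and with only these 4 libraries in the fit it was 140. Both steps called 881 genes, which is 25.6% of the induced and 50.4% of the natural calls, and 839 of these had the same direction. Across 12620 genes the log2 fold changes had a Pearson correlation of 0.428, given as a description, since genes are not independent. The difference between the steps, induced minus natural, was called for 839 genes (4.82%). Of genes called in the induced step alone, 428 had a called difference, and of those called in the natural step alone, 258. With only the 4 groups in the fit, 293 differences were called, and without Thy_ETPs replicate 1, 542.

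Lef1, Rag1, Notch3 and Slc5a9 rose in both steps, with natural log2 fold changes of 4.87, 4.29, 1.70 and 6.35, and no called difference. Cd3d, Cd3g, Cd3e and Ptcra differed between the steps. Natural Thy_ETPs already held Cd3d at 48.5 and 31.3 FPKM, and DN3 at 411 and 423, so its natural log2 fold change was 3.39 and the difference 4.91 (SE 0.32, adjusted p = 1.57e-17). Cd3g stood at 1073 and 749 in Thy_ETPs and 1294 and 2011 in DN3, a difference of 4.43 (adjusted p = 2.04e-20), and Cd3e had a difference of 2.33 (adjusted p = 6.83e-05). Ptcra stood at 14.5 and 20.9 in Thy_ETPs against 0 in Thy_iETPs, and its difference passed (adjusted p = 0.00736). In DN3 it stood at 166 and 182. All 4 genes were higher in both Thy_ETPs libraries than in all 3 Thy_iETPs libraries, and their differences passed under every alternative run.

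Other genes had a more negative change in the induced step. Gal was listed at 0 in all 4 natural libraries. Hhex stood at 9.83 and 15.3 FPKM in Thy_ETPs and was listed at 0 in DN3, and Lmo2 stood at 0.842 and 2.59 and was listed at 0, so their natural fall has no measured size. Both started higher in Thy_iETPs, and both differences passed (adjusted p = 0.00478 and 0.0109), but neither did with a pseudocount of 0.1 or without Thy_ETPs replicate 1, and that of Lmo2 was also lost with only these groups in the fit and without Thy_iETPs replicate 2. Kit stood at 12.3 and 8.08 in Thy_ETPs, and its difference of -2.28 (adjusted p = 0.0411) was lost under 10 alternatives, among them the leaving out of each Thy_iETPs or Thy_ETPs library, of DN3 replicate 1 and of iDN3 replicate 1 or 3. Dusp2, Cd5 and Cd6 had differences of -2.12, -2.48 and -2.22, lost for Cd5 with a pseudocount of 0.1 and for Cd6 with only these groups in the fit. Dhrs3, a retinal reductase, stood at 286, 335 and 397 in Thy_iETPs and 23.0 and 18 in Thy_ETPs, with a difference of -4.36 (adjusted p = 1.33e-04). Mgll, a lipase gene, stood at 13.6, 8.38 and 3.27 in Thy_iETPs and was listed at 0 in iDN3 and Thy_ETPs, with 4.82 and 0 in DN3 (adjusted p of the difference = 1.64e-06). Intu, a planar polarity gene, and Tle6, a corepressor-like gene, had differences of -4.42 and -4.61, both lost with a pseudocount of 0.1 and that of Tle6 also without DN3 replicate 1 or Thy_ETPs replicate 1. Dtx1 rose in the natural step by 3.25 and had a difference of -2.24 (adjusted p = 0.0275), which was lost under 6 alternatives, among them the leaving out of DN3 replicate 2, Thy_ETPs replicate 2 or iDN3 replicate 1.

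Some genes of antigen presentation were high in Thy_ETPs and low in the other 3 groups, which was not so for H2-Ob. H2-Eb1 stood at 233 and 435 FPKM in Thy_ETPs, Cd74 at 342 and 568, H2-Aa at 139 and 227 and H2-Ab1 at 507 and 905, and each was low or listed at 0 in Thy_iETPs, iDN3 and DN3. All 4 differences passed (adjusted p = 4.50e-08, 2.36e-11, 8.21e-07 and 0.00677), that of H2-Ab1 not with a pseudocount of 0.1 or without DN3 replicate 1. The dendritic cell genes Irf8 and Cst3 and the phospholipase-like Plbd1, at 30.2 and 78.7, 1323 and 1707 and 93.1 and 147 in Thy_ETPs, moved with them. Called differences, all positive, were found for 6 of 12 MHC class II pathway genes and 8 of 14 dendritic genes. Over all genes tested the share was 4.82%. With only these groups in the fit the dendritic count was 4. The class II count was between 4 and 7 under the alternatives. The summed level of the class II list was 1430 and 2437 FPKM in Thy_ETPs and 194.6 to 204.0 in Thy_iETPs, and of the dendritic list 1449 and 1913 against 396.2 to 531.3. Their part in the other differences was not tested.

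Mitosis genes moved differently in natural cells. In the natural step 13 of the 28 were called lower and 0 higher, with a median of -1.41. Of all genes tested, 10.0% were called in that step in either direction. The count of 13 was 1 with only these groups in the fit, 7 with a pseudocount of 0.1 and 8 without Thy_ETPs replicate 1. The difference was called for 18, all positive, with a median of 2.07. Over all genes tested it was called for 4.82%. Plk1, a mitotic kinase, stood at 73.9 and 66.3 FPKM in Thy_ETPs and 17.9 and 0.570 in DN3, against 9.57, 18.4 and 20.5 in Thy_iETPs and 33.8, 25.2 and 13.6 in iDN3 (difference 4.24, adjusted p = 9.28e-04). Top2a stood at 318 and 248 and 78.0 and 82.2 in the natural stages and at 88.7, 97.9 and 112 and 194, 169.9 and 107 in the induced ones (2.42, adjusted p = 0.0117). Natural ETPs were the highest of the 4 groups in both genes. The difference of Plk1 was lost without DN3 replicate 2 and that of Top2a without Thy_ETPs replicate 1. The count of 18 was 7 with only these groups in the fit, 10 with a pseudocount of 0.1, 9 without DN3 replicate 2 and 11 without Thy_ETPs replicate 1. Hspa1a and Hspa1b, which rose in the induced step, stayed at or under 0.975 FPKM in all natural libraries, and Pgam2, a muscle form of a glycolysis enzyme, had a difference of 5.86 (adjusted p = 1.78e-06).

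**Figure D4:**
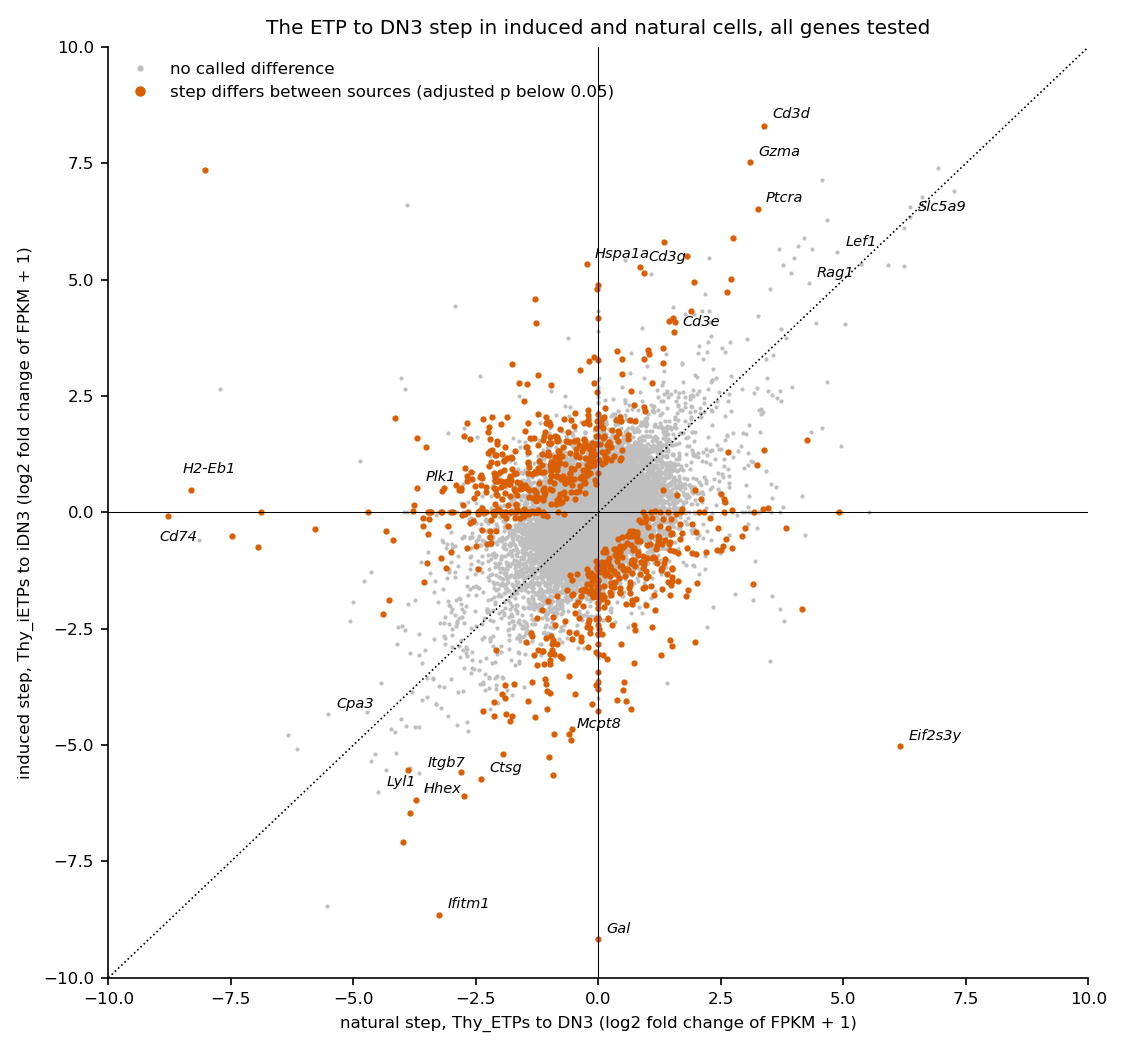
Log2 fold change of each gene tested in the natural step (horizontal axis) and the induced step (vertical axis), both on the log2(FPKM + 1) scale, with the 839 genes whose step differs between sources in orange and a dotted line where both are equal. Lef1, Rag1 and Slc5a9 lie near the line, Cd3d, Cd3g and Cd3e above it, Gal at 0 in the natural step and -9.18 in the induced one, and Cd74 and H2-Eb1 near 0 in the induced step alone.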

How the data were processed

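RNA of 1000 sorted cells per library was sequenced. Per the submitters' processing notes, bcl2fastq, TopHat, Cufflinks 2.2.1 and Cuffnorm were used with mouse build NCBIM37, and the authors deposited 1 table of FPKM for 37980 gene IDs in 76 libraries. How Cuffnorm scaled the libraries is not given in the sources used here. Symbols were found for 32916 IDs (86.7%) in a GRCm38 annotation (GENCODE vM21), so no coordinates of the table were used. The pro- and pre-B library of replicate 3 held the same values as replicate 1 and was dropped, which left 75 libraries in 24 groups. Each column was assigned to a sample by its title.

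FPKM were taken as log2(FPKM + 1). The filter asked for 1 FPKM or more in 2 or more libraries, which 17416 IDs passed, 16304 of them with a symbol. In R 4.3.3, limma 3.58.1 (trend and robust, 51 residual degrees of freedom) fitted 1 mean per group over the 75 libraries, so all groups shared one estimate of the spread. The 5 comparisons were two-sided contrasts with Benjamini-Hochberg adjustment over all genes tested and a threshold of 0.05. The script was tested on simulated data. Depth was estimated from 4285 genes with 1 annotated transcript of at least 1000 bases, as whole multiples of the lowest step within a tolerance of 0.2.

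Named were Hoxb5, members of 33 gene lists, the 12 highest and 12 lowest log2 fold changes of the induced step and the 8 highest and 8 lowest differences between sources, among called genes whose higher group averaged 5 FPKM or more and, for the induced step, whose groups did not overlap. The ranks took no receptor segments, small RNAs, pseudogenes or predicted genes. The lists of sex-linked genes and beta variable segments were added after their values were seen. The members and lists were chosen with earlier results of these data known. Some list members are not reported here by name. Lists are described by counts and medians beside those of all genes tested, and they overlap. Alternatives were a pseudocount of 0.1, no filter, libraries scaled to the same total, quantile normalization, library weights, a replicate block, only the compared groups in the fit, each library left out in turn, and scaling to the total of nuclear genes. Promoter windows came from RefSeq (GRCm38.p6) by symbol, with Python 3.11.15 and pandas 2.3.3, and all 4 genes searched for matched.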

Additional observations from a re-analysis of the deposited data

Results flagged for a closer look

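The difference between the induced and the natural step, induced minus natural on the log2(FPKM + 1) scale, was called for 839 genes by the limma contrast over both steps, and it was itself tested for each gene given here. The genes named above with a called difference are listed with that difference, or with the adjusted p alone where a group was listed at 0 throughout. The steps share no libraries.

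Sex-linked genes had opposite orders of stage in the 2 sources: Eif2s3y and Ddx3y (adjusted p = 1.93e-13 and 9.83e-11) were lower and Xist (difference 4.18) higher in the later induced stage, against the reverse in natural cells.

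Among progenitor, myeloid and mast cell genes, the induced step lay below the natural one for Kit (-2.28) and Cd93 (-1.24), and, by adjusted p, for Hhex (0.00478), Lmo2 (0.0109), Gata2 (0.00237), Cebpa (0.000512), Cd33 (0.0122), Ctsg (3.64e-09), Mcpt8 (4.89e-11) and Hoxb5 (0.00056). It lay above it for Flt3 (2.01), Mef2c (1.64) and, by adjusted p, Bcl11a (1.85e-05), genes called lower in the natural step and not called in the induced one. Hoxb5 was listed at 0 in all natural libraries, so its difference only restates the induced fall. Ctsg was listed at 0 in both iDN3 and DN3, so its difference rests on the starting levels.

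Genes of receptors, signaling and migration with a negative difference were Cd5 (-2.48), Cd6 (-2.22), Dusp2 (-2.12), Dtx1 (-2.24), Tspan32 (-3.35) and, by adjusted p, Ly6c2 (0.0106) and S1pr1 (0.00154). Those with a positive difference were Cd3d (4.91), Cd3g (4.43), Cd3e (2.33), Ccr9 (2.52), Il7r (1.5), Cd24a (1.29), Cd52 (2.39), Cd81 (2.05), Ets2 (1.89), Gzma (4.43), Pld4 (3.71) and, by adjusted p, Ptcra (0.00736). In recombination and end joining, Lig4 (2.71), Xrcc5 (2.87) and Dntt (1.12) had positive differences.

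Other negative differences were found for the interferon response genes Oas2 (-2.90), Irgm1 (-1.26) and, by adjusted p, Ifitm1 (0.000307), for Tle6 (-4.61), Intu (-4.42), Dhrs3 (-4.36) and Igfbp4 (-3.08), and, by adjusted p, for Gal (8.14e-12), Mdga1 (0.00167), Olfm5 (0.000176), Mgll (1.64e-06) and Trib3 (0.0402). Gal was listed at 0 in all natural libraries, so its difference only restates the induced fall. Olfm5 was listed at 0 in both iDN3 and DN3, so its difference rests on the starting levels.

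The cell cycle genes with a called difference that are named above were all positive: Plk1 (4.24), Nusap1 (3.79), Bub1 (3.24), Aurka (3.06), Birc5 (2.87), Top2a (2.42), Ccnb1 (2.40), Mki67 (2.14), Mad2l1 (2.04), Ccna2 (2.03), Kif11 (1.89), Ccne2 (2.54), Rrm1 (1.64), Prim1 (1.42) and the inhibitor Cdkn2c (2.2). Smarca4 (1.11), Gapdh (0.89) and Pgam2 (5.86) had positive differences, and so, by adjusted p, had Hspa1a (7.66e-10) and Hspa1b (3.65e-08). In the stroma list Epcam (2.64) had a positive difference, and Prss16 a negative one (adjusted p = 0.000264).

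Antigen presentation and dendritic genes, high in Thy_ETPs, had positive differences: H2-Ab1 (6.20), Irf8 (6.17), Cst3 (2.23) and, by adjusted p, Itgax (0.00697), Cd74 (2.36e-11), H2-Eb1 (4.5e-08), H2-Aa (8.21e-07) and Plbd1 (4.49e-07). Plbd1 was listed at 0 in both Thy_iETPs and iDN3, so its difference only restates the natural fall.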

How the results depend on the processing

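For the induced step the count of called genes lay between 3179 and 4183 under every setting that kept all libraries and between 2742 and 3081 with 1 library left out, against 3446. Of 196 named genes called in it, 149 were called under every alternative run and 47 were not under at least 1, and 11 of 39 named genes not called were called under some. The counts of the other comparisons moved more. Library weights gave 3706 genes from Thy_iETPs to iDN2, 474 from iDN2 to iDN3 and 1148 in the natural step. With only the groups of the comparison in the fit, the natural step had 140 and the difference between the steps 293. With 1 library left out the counts ranged from 1300 to 2168 to iDN2, from 107 to 133 from iDN2 to iDN3, from 1036 to 1704 in the natural step and from 542 to 925 for the difference, where a lone library was assumed to vary like the other groups. Of named genes, the call was lost under at least 1 alternative for 63 of 163 to iDN2, 17 of 27 from iDN2 to iDN3, 68 of 101 in the natural step and 49 of 80 for the difference. A change of direction was found for Trbv31 alone, whose log2 fold change from Thy_iETPs to iDN2 was -0.50 without iDN2 replicate 2 (adjusted p = 0.723) and 3.55 without iDN2 replicate 1. With a pseudocount of 0.1, positive values made up 66.3% of the called differences instead of 55.8%. Scaling to nuclear totals was chosen after seeing the data. Whether replicate numbers pair the samples was looked at through the deviations of each library from its group mean. Between same-numbered Thy_iETPs and iDN3 libraries these deviations had correlations of -0.015, 0.003 and 0.010. Those of Thy_iETPs replicate 1 correlated more with iDN3 replicate 2 (0.015) than with its own number. With 3 libraries per group such values cannot decide whether samples were paired. The replicate block gave 3465 genes for the induced step, 2410 to iDN2 and 148 from iDN2 to iDN3. It gave 1750 in the natural step and 826 for the difference. Among named genes the block ended the calls of Cflar in the induced step, Ezh1 to iDN2, Ets2 from iDN2 to iDN3 and Irgm1 for the difference, and no other. The cause of these changes was not tested, except that leaving out libraries leaves fewer samples. At 4.34 to 6.20 fragments per FPKM and kilobase, levels near 1 FPKM rest on few fragments.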
